A study of Homo sapiens with 6 samples.

Results

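HSP70 chaperones and their HSP110 relatives were followed by RNA sequencing in A549, an established human line from a lung adenocarcinoma, labelled as alveolar epithelial. The 10 family members were taken by symbol from the deposited gene table: HSPA1A, HSPA1B, HSPA1L, HSPA2, HSPA4, HSPA6, HSPA8, HSPA13, HSPA14 and HSPH1. They filled 11 of its 58735 rows, because HSPA14 has 2 gene identifiers. All 11 rows passed the filter on low counts, as did 15550 rows in all. One group of 3 libraries came from cells given paraquat (PQ), a herbicide that makes superoxide by redox cycling. The other group of 3 came from cells given PQ with SS-31, a peptide that binds cardiolipin in mitochondria. Both groups are labelled 48 h, and no dose is stated in the labels. No library without PQ was analysed here, so the response to PQ itself was not measured. The family was singled out because of how HSPA6 and its relatives differed between these groups, so each difference of a member between the groups is given as a description.

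HSP70 proteins bind exposed hydrophobic stretches of unfolded polypeptides and release them in a cycle driven by ATP. J-domain proteins deliver clients and trigger ATP hydrolysis, and nucleotide exchange factors, the HSP110 proteins among them, reset the cycle. HSPA8 (HSC70) is the constitutive housekeeping member, while HSPA1A, HSPA1B and HSPA6 are switched on by the transcription factor HSF1 when proteins misfold, and HSPA6 is known in human cells as the most strictly inducible of them. Expression of inducible HSP70 is a common readout of proteotoxic stress in cultured cells.

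HSF1 binds heat shock elements, inverted repeats of the unit GAA. Promoter windows of 300 bases, 250 before and 50 after the start of each gene, were matched by symbol for 9 of the 10 members, HSPA14 being the exception, and are credited to RefSeq (GRCh38.p14). The stretch from the beginning of the window to the last base before any annotated exon is shown for the stress-induced members whose values were lower with SS-31: HSPA6 (chr1:161524290-161524539, plus strand) and the near-identical pair HSPA1A (chr6:31815293-31815463, plus strand) and HSPA1B (chr6:31827488-31827734, plus strand). Each is written 5′ to 3′. Capitals mark the 2-unit matches GAANNTTC and TTCNNGAA and, where these overlap, the 3-unit element they form (GAA, any 2 bases, TTC, any 2 bases, GAA, on either strand).
HSPA6: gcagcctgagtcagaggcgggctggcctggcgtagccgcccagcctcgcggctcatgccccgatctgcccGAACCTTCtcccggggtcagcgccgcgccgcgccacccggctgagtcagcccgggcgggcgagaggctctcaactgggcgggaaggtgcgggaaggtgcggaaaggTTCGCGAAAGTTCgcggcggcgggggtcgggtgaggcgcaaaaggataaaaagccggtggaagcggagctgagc
HSPA1A: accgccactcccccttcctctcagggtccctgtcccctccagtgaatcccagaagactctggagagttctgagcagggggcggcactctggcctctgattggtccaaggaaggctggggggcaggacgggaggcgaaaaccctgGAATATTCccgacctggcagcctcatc
HSPA1B: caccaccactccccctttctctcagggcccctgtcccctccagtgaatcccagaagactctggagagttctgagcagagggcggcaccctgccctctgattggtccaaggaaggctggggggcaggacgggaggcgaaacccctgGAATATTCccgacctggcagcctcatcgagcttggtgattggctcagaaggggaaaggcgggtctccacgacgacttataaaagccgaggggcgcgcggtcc
The HSPA6 window held 1 copy of the 3-unit element, its first base at -74, and another GAANNTTC at -180. Positions count from the RefSeq start, the base after -1, which for HSPA6 is also the GENCODE start of the gene. HSPA1A and HSPA1B held a single GAANNTTC, at -106 and -105, and no exact 3-unit element. In both, the printed GAATATTC is followed by ccgac, so the stretch differs from the 3-unit form in its last base. Inexact forms were not counted in any window. Their RefSeq starts, 31815543 and 31827738, lie 79 and 3 bases downstream of the GENCODE starts of these genes. The window of the constitutive HSPA8 held 2 copies of the 3-unit element, at -230 and -55 from a RefSeq start that lies 1094 bases downstream of the outermost GENCODE start. The 3-unit element was found in 0.49% of the 35116 RefSeq windows, GAANNTTC in 6.77% and TTCNNGAA in 7.74%. The windows of HSPA2, HSPA4, HSPA13 and HSPH1 held none of these forms, and that of HSPA1L overlaps the HSPA1A window on the opposite strand and holds the same GAANNTTC. For HSPA2 and HSPA13 the RefSeq start lies 4836 and 338 bases downstream of the outermost GENCODE start. The sequence before that outermost start was not searched in these genes. CCAAT, on either strand, is in 34.6% of windows and was present in HSPA1A, HSPA1B, HSPA1L, HSPA2 and HSPA8. TATAAA, on either strand, is in 11.5% of windows and was present in HSPA1A and HSPA1B and, through the overlap, in HSPA1L. The HSPA1A and HSPA1B windows were identical at 277 of 299 aligned bases. A match describes these letters only; binding of HSF1 was not measured.

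Total counts ran from 16332061 to 17576827 per library. Whether replicates came from separate cultures is not labelled, and p-values therefore rest on the spread between these libraries, which may be technical. Libraries of 1 group differed by a chi-square per degree of freedom of 7.48 to 35.7. PQ replicates 1 and 2 were the closest pair (7.48), and PQ replicates 2 and 3 were the farthest apart (35.7). PQ+SS-31 replicate 1 differed from replicates 2 and 3 by 25.4 and 23.2, which differed from each other by 10.1. Values without PQ replicate 3, the highest library for HSPA6, stand beside the results. The cells carried the keratin genes KRT8 and KRT18 at high levels and 0 counts of CDKN2A, which A549 has lost, but 7 to 14 counts of the epithelial marker EPCAM. The summed level of 5 epithelial markers was 1637 to 1889 CPM (counts scaled to a common library size with TMM factors) with PQ and 2306 to 2681 CPM with PQ+SS-31, without overlap. KRT8 (1192 to 2077 CPM over all libraries) and KRT18 (399 to 608 CPM) made up nearly all of this sum. EPCAM, KRT19 and CDH1 reached at most 0.814, 16 and 27.5 CPM. Of all tested genes, 18.0% did not overlap in either direction. Of 6 blood cell markers, 2 (CD3E and CSF3R) were at 0 in every library, and the sum was 0.0632 to 0.178 CPM with PQ and 0.349 to 0.594 CPM with PQ+SS-31, from at most 6 counts of any marker in a library. The part of the epithelial and blood marker sums in the HSP70 values was not tested. Of 3 endothelial and 4 fibroblast markers none was at 0 throughout, and their sums overlapped, at 0.233 to 0.653 and 10.1 to 17.7 CPM with PQ and 0.0579 to 0.408 and 12.4 to 21.2 CPM with PQ+SS-31.

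HSPA6, the strictly inducible HSP70 (ENSG00000173110, chromosome 1, 161524540 to 161526910, GRCh38), was far lower with SS-31. It had 200, 170 and 278 counts in PQ replicates 1 to 3, or 11.9, 10.7 and 16.2 CPM. In PQ+SS-31 replicates 1 to 3 it had 26, 29 and 18 counts, or 1.5, 1.72 and 1.05 CPM. Every PQ library lay far above every PQ+SS-31 library, and PQ replicate 3 was the highest. The fitted log2 fold change, PQ+SS-31 over PQ, was -3.18 ± 0.24 (SE), a level 9.04-fold lower, which ranked 2 in size among the 15550 tested genes. Without PQ replicate 3 the value was -2.99. In bulk RNA, fewer cells making the transcript and less transcript per cell cannot be told apart.

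HSPA6 is a gene of 1 exon, and its neighbour HSPA7 (chromosome 1, 161606291 to 161608217) is a pseudogene whose sequence matched the HSPA6 coding sequence at 98.6% of aligned bases. Of the 100-base windows of the HSPA6 transcript, 27.6% occur unaltered in HSPA7, and the read length is not stated in the labels. HSPA7 had 4 counts in PQ replicate 1 and 0 in the other libraries, and with the counts of both genes summed the log2 fold change was -3.19 ± 0.24 (SE). A non-coding gene on the same strand, AL590385.2, spans HSPA6 and had 0 counts in every library.

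HSPA1A and HSPA1B encode the classical stress-induced HSP70 and lie beside HSPA1L in the major histocompatibility region. HSPA1A (chromosome 6, 31815464 to 31817946) stood at 39.0, 33.4 and 51.4 CPM in PQ replicates 1 to 3 and in PQ+SS-31 replicates 1 to 3 at 24.4, 24.5 and 29.7 CPM. The groups did not overlap, with PQ replicate 2 and PQ+SS-31 replicate 3 the nearest to each other. HSPA1B (chromosome 6, 31827735 to 31830255) stood at 32.2, 27.9 and 35.9 CPM with PQ and at 17.1, 20.7 and 19.9 CPM with PQ+SS-31, again with no overlap. Log2 fold changes were -0.65 ± 0.16 (SE) for HSPA1A and -0.74 ± 0.13 (SE) for HSPA1B, or -0.47 and -0.65 without PQ replicate 3. The edgeR fit over all genes called HSPA1B and not HSPA1A.

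The split between these copies is uncertain. Their coding sequences were identical at 1919 of 1923 bases, and 69.9% of the 100-base windows of HSPA1A occur in HSPA1B. Of the HSPA1B windows, 72.7% occur in another gene. A gene on the same strand, AL671762.1, overlaps HSPA1B by 1422 bases and had 0 counts in every library. The ratio of HSPA1A to HSPA1B counts was 1.28 ± 0.131 in the PQ group and 1.37 ± 0.164 in the PQ+SS-31 group (SD, n = 3), with overlap. Summed as 1 gene, they had a log2 fold change of -0.69 ± 0.14 (SE) and were not called. HSPA1L, a relative best known from testis, had 62 to 72 counts with PQ and 49 to 64 with PQ+SS-31, and its groups overlapped (log2 fold change -0.39 ± 0.21, SE).

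**Figure D1:**
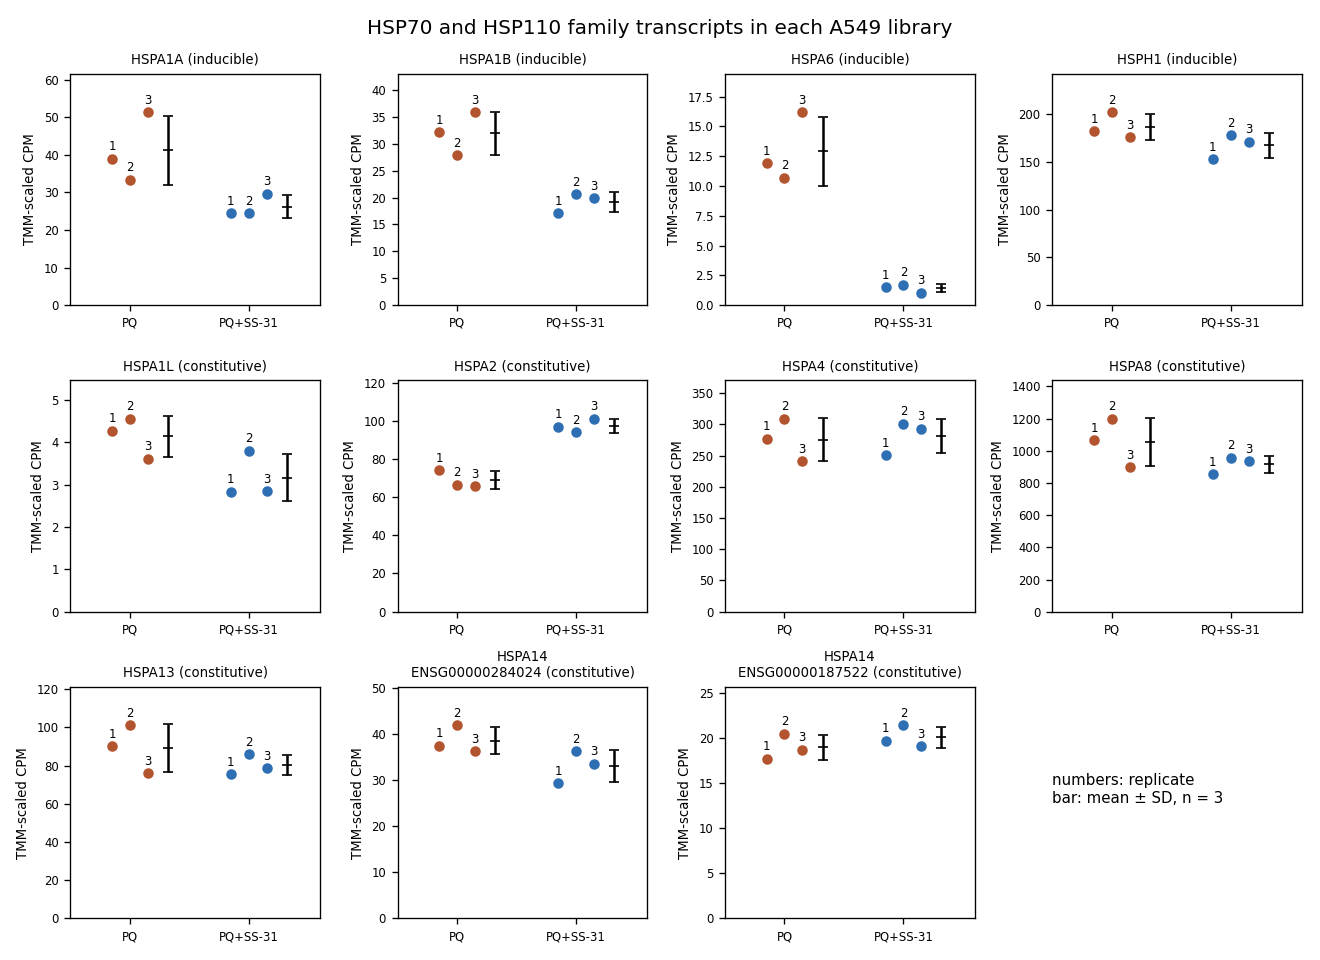
TMM-scaled CPM of each family row in each library (points, numbered by replicate; bars are mean ± SD, n = 3). HSPA6, HSPA1A and HSPA1B are lower and HSPA2 is higher in every PQ+SS-31 library than in any PQ library, while the other members overlap.

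HSPA2, an HSP70 needed for male meiosis and present in many cancer lines, went the other way. HSPA2 (chromosome 14, 64535905 to 64546173) stood at 74.1, 66.6 and 65.6 CPM in PQ replicates 1 to 3 and in PQ+SS-31 replicates 1 to 3 at 96.9, 93.9 and 101 CPM. All PQ+SS-31 libraries lay above all PQ libraries. Its log2 fold change was 0.50 ± 0.09 (SE), a level 1.42-fold higher, and 0.46 without PQ replicate 3. Its transcript shared no 100-base window with another gene. An antisense gene over it, AL049869.3, had 0 to 4 counts.

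The housekeeping member HSPA8 (chromosome 11, 123057489 to 123063230) stood at 1065, 1199 and 899 CPM with PQ and at 854, 957 and 937 CPM with PQ+SS-31. The PQ+SS-31 libraries fell within or below the range of the PQ libraries, and the groups overlapped. Its log2 fold change was -0.20 ± 0.12 (SE), and its promoter window holds the 3-unit element that HSPA6 also has. No 100-base window of its transcript occurred in another annotated gene.

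The HSP110 proteins act as nucleotide exchange factors for HSP70. HSPH1 (HSP105), a heat-inducible HSP110, stood at 182, 202 and 176 CPM with PQ and at 153, 178 and 171 CPM with PQ+SS-31, overlapping (log2 fold change -0.16 ± 0.10, SE). HSPA4 (APG-2), its constitutive relative, ranged from 241 to 309 CPM with PQ and from 251 to 301 CPM with PQ+SS-31, with a log2 fold change of 0.03 ± 0.12 (SE) that ran from -0.06 to 0.12 without 1 library. The coding sequences of these HSP110 members were 66.7% identical over aligned bases, while that of HSPH1 was 53.6% identical to HSPA6.

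HSPA13 (STCH), a member known from the microsome fraction rather than the cytosol, ranged from 76.0 to 101 CPM with PQ and from 75.6 to 85.8 CPM with PQ+SS-31 (log2 fold change -0.16 ± 0.12, SE). HSPA14 (HSP70L1), which works at the ribosome, is listed under a pair of identifiers on the same strand of chromosome 10. Their genomic spans, introns included, overlap by 8855 bases. The longest coding sequences of ENSG00000284024 and ENSG00000187522, of 1083 and 1527 bases, were only 58.9% identical over aligned bases. For ENSG00000284024 and HSPA1L the value was 63.8%. ENSG00000284024 was taken as a member by its symbol alone, and whether it encodes an HSP70 was not tested. It counts in the 11 family rows and in the constitutive sum. Of the 100-base transcript windows, 7.63% of ENSG00000284024 and 20.1% of ENSG00000187522 occur under the other identifier, and reads there cannot be told apart. ENSG00000284024 ranged from 36.2 to 41.8 CPM with PQ and from 29.3 to 36.2 CPM with PQ+SS-31, with a log2 fold change of -0.22 ± 0.11 (SE). ENSG00000187522 ranged from 17.7 to 20.5 and from 19.1 to 21.4 CPM, with 0.08 ± 0.11 (SE). These values differed in sign, and both had overlapping groups.

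**Figure D2:**
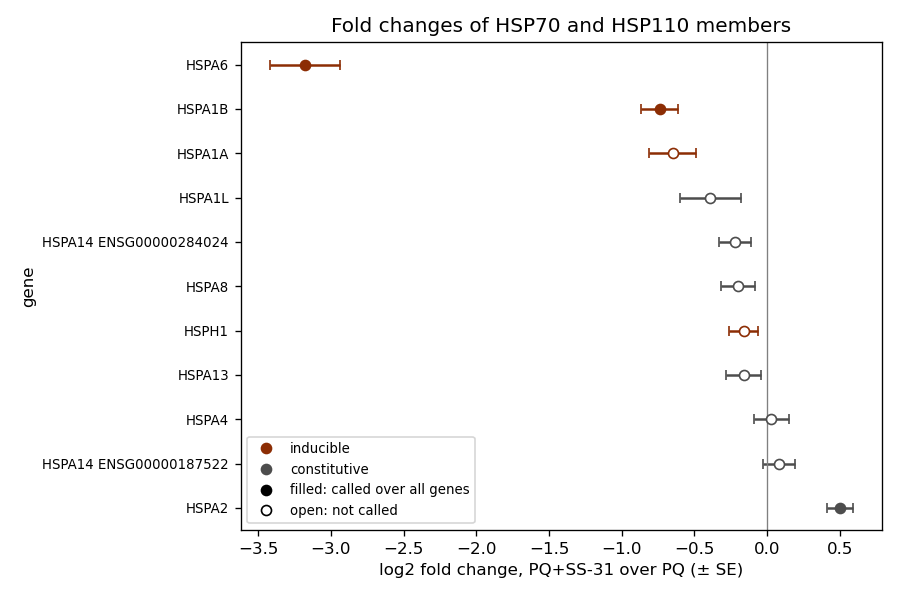
Fitted log2 fold change (PQ+SS-31 over PQ) ± SE of each family row, coloured by class and filled where edgeR called the gene over all genes. HSPA6 at -3.18 lies far from the other members, which run from -0.74 to 0.50.

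Calls came from edgeR's quasi-likelihood test over all 15550 tested genes (Benjamini-Hochberg adjusted p under 0.05). Of the 11 family rows, 2 were called lower (HSPA6 and HSPA1B), where 0.463% of all tested genes were, and 1 higher (HSPA2), where 0.129% were; 0.592% were called in either direction. Groups did not overlap in 3 rows that were lower, where 8.86% of all tested genes did not, and in 1 that was higher, where 9.16% did not, or 18.0% in either direction. Since the family was chosen from this comparison, nothing is read from these counts. The median log2 fold change was -0.20 over the 11 rows and 0.00 over all tested genes, and 8 of the 11 were negative. DESeq2 called HSPA1A as well as these 3, where 2.49% of the 12084 genes to which it gave an adjusted p were called. So did edgeR with the replicate number as a block, where 1.29% of tested genes were called.

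The calls depended on single libraries. HSPA6 was called in 5 of 6 refits that each left out 1 library, and HSPA1B and HSPA2 in 1 each, that without PQ replicate 3. That refit called 2.07% of all genes, and the others 0.00626% without PQ replicate 1, 0.0624% without PQ replicate 2, 0.0315% when PQ+SS-31 replicate 1 was left out and 0.00628% for PQ+SS-31 replicate 2. Without PQ+SS-31 replicate 3 edgeR called 0 of 15918 genes, HSPA6 included, while 597 higher and 659 lower passed an unadjusted p of 0.05. HSPA1B and HSPA2 were not called when libraries were scaled by size alone, where 13 genes were called higher and 56 lower of 15550. The fitted value of HSPA6 ran from -3.33 to -2.99 over these refits, that of HSPA1B from -0.82 to -0.65 and that of HSPA2 from 0.46 to 0.56.

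Levels of different genes were compared as CPM per kilobase of gene length, the union of a gene's annotated exons. This union can exceed a single transcript. It was 4849 bases for HSPA8, whose transcript with the longest coding sequence held 2364 windows of 100 bases. For HSPA1A and HSPA1B, 69.9% and 72.7% of such windows occur in another gene. Multi-mapping settings are not given, so their levels are uncertain. The order and shares on this scale depend on both points. On this scale HSPA8 led with PQ at 217 ± 31.0 (SD, n = 3), 57.4% of the family total, followed by HSPA4 at 53.5 ± 6.60, each clear of the next in every library. HSPH1 at 22.2 ± 1.67, HSPA13 at 21.3 ± 3.03, HSPA1A at 16.6 ± 3.71, HSPA1B at 12.7 ± 1.59 and HSPA2 at 11.9 ± 0.803 CPM per kilobase each overlapped the neighbour below within that run. The HSPA14 identifiers followed at 7.81 ± 0.600 and 7.19 ± 0.539, then HSPA6 at 5.45 ± 1.21 and HSPA1L at 1.63 ± 0.191 CPM per kilobase, where HSPA6 overlapped the HSPA14 row above it and not HSPA1L. With SS-31, HSPA2 at 16.9 ± 0.629 CPM per kilobase stood above HSPA1A at 10.6 ± 1.23 and HSPA1B at 7.63 ± 0.762, clear of both in every library. The HSPA14 identifiers changed places, at 7.60 ± 0.458 and 6.70 ± 0.711, but overlapped. HSPA6, at 0.601 ± 0.145 CPM per kilobase, was last, below every library of HSPA1L at 1.24 ± 0.217.

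**Figure D3:**
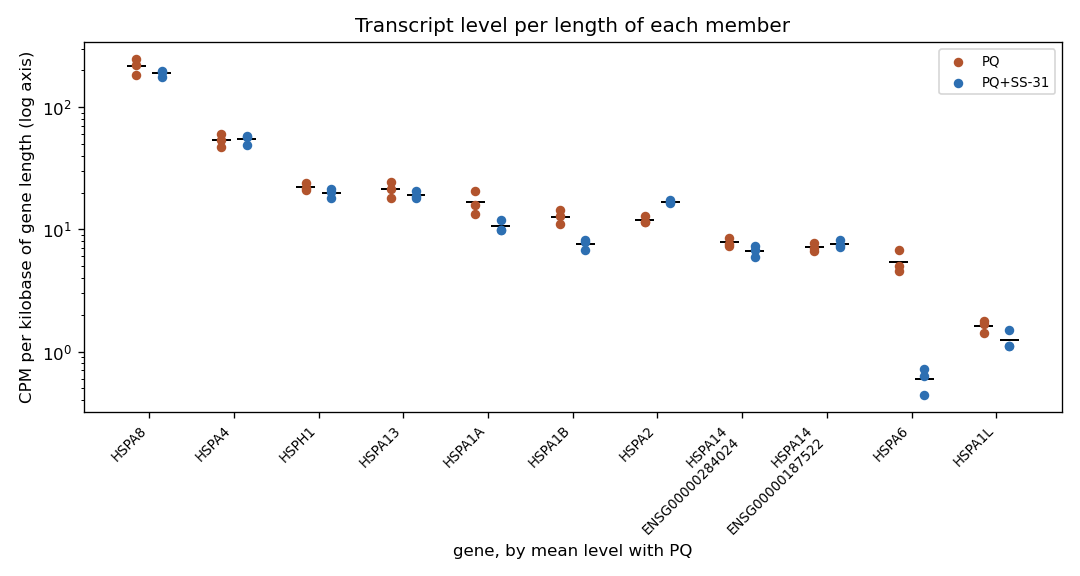
CPM per kilobase of gene length (log axis) of each family row in each library (points; lines are means of 3 libraries), ordered by the mean with PQ. HSPA8 leads in both groups, and HSPA6 moves from above HSPA1L with PQ to below it with PQ+SS-31.

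Inducible and constitutive members were compared by their sums. The inducible class (HSPA1A, HSPA1B, HSPA6 and HSPH1) summed to 265, 274 and 279 CPM in PQ replicates 1 to 3 and to 196, 225 and 222 CPM in PQ+SS-31 replicates 1 to 3, without overlap. The constitutive class summed to 1566, 1743 and 1339.9 CPM with PQ and to 1329, 1499 and 1466 CPM with PQ+SS-31, with overlap. The log2 ratio of inducible to constitutive CPM was -2.56, -2.67 and -2.26 with PQ and -2.76, -2.74 and -2.73 with PQ+SS-31. Every PQ library was above every PQ+SS-31 library, with a difference of group means of -0.24, or -0.13 without PQ replicate 3. HSPH1 made up most of the inducible sum: with HSPH1 counted as constitutive the difference was -0.75. HSPA1A, HSPA1B and HSPA6, then left as inducible, are the members that were lower without overlap. This larger difference therefore follows from the choice and is no separate result. With HSPA6 left out the difference was -0.18.

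HSPA1A, HSPA1B and HSPA6, the inducible members without HSPH1, held 8.84%, 7.02% and 12.3% of the family's summed CPM per kilobase in PQ replicates 1 to 3. In PQ+SS-31 replicates 1 to 3 they held 5.57%, 5.39% and 5.94%. The share was lower in each PQ+SS-31 library, and PQ replicate 3 had the highest. Since these 3 are the members that were lower without overlap, the lower share follows from the choice and is no separate result. HSPA6 had 11.1, 8.96 and 18.0 counts per 1000 HSPA8 counts with PQ and 1.76, 1.80 and 1.12 with PQ+SS-31. The family as a whole summed to 378 ± 37.0 and 334 ± 21.3 CPM per kilobase (SD, n = 3), with overlapping groups.

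**Figure D4:**
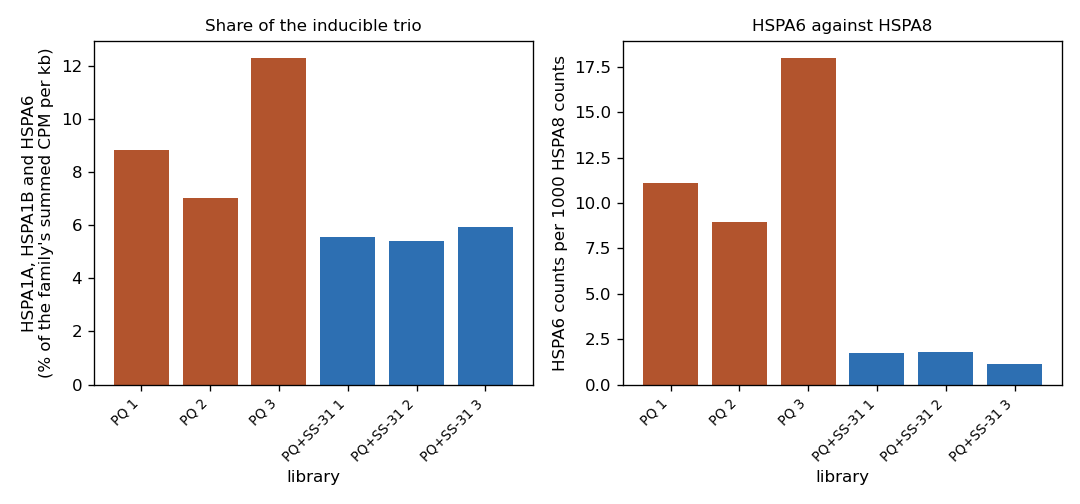
Left, the percentage of the family's summed CPM per kilobase held in each library by HSPA1A, HSPA1B and HSPA6, the members lower without overlap. Right, HSPA6 counts per 1000 HSPA8 counts. Bars are single libraries: PQ runs from 7.02% to 12.3% on the left and PQ+SS-31 from 5.39% to 5.94%.

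Members also varied between PQ libraries. PQ replicate 3 had the highest HSPA6, HSPA1A and HSPA1B of the PQ group and the lowest CPM of the other members, except 1 HSPA14 identifier (ENSG00000187522), which was lowest in PQ replicate 1. On log2 CPM relative to each gene's mean over the 6 libraries, HSPA1A was at 0.66 in PQ replicate 3 and at 0.26 and 0.04 in PQ replicates 1 and 2. HSPA8 was at -0.12 in PQ replicate 3 and at 0.12 and 0.29 in replicates 1 and 2. Without this library HSPA1A had a log2 fold change of -0.47 and HSPA8 of -0.31.

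Genes that work with HSP70 were read from 6 lists of 48 genes, of which 47 were tested; the lists were drawn up with earlier results of these data known. By edgeR, 0 were called higher and 0 lower over all genes, where 0.592% of tested genes were called. At an unadjusted p of 0.05 by edgeR, 0 of the 47 were higher and 6 lower, where 5.62% of all tested genes were higher and 5.94% lower. DESeq2 called 0 higher and 1 lower, DNAJB1, where it called 2.49% of the 12084 genes to which it gave an adjusted p. The median log2 fold change was -0.01 over the 47 genes and 0.00 over all tested genes.

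DNAJB1, the heat-induced J-domain protein that loads clients on HSP70, stood at 118, 117 and 108 CPM in PQ replicates 1 to 3 and in PQ+SS-31 replicates 1 to 3 at 85.4, 94.0 and 84.9 CPM. The groups did not overlap, where 8.86% of all tested genes were lower without overlap. The gene missed the threshold by edgeR (log2 fold change -0.38 ± 0.09, SE, adjusted p = 0.114). It passed by DESeq2 (adjusted p = 0.0281) and by edgeR without PQ replicate 3 (adjusted p = 0.0391), and the edgeR adjusted p ran up to 0.512 without 1 library. Over the 9 cytosolic J-domain partners the median was -0.05, with 8 negative. DNAJB2, of the same list, had a log2 fold change of -0.31 ± 0.13 (edgeR adjusted p = 0.401).

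Among the other HSP70 and HSP110 relatives, 6 of 7 tested, HSPA9, the mitochondrial HSP70 mortalin, stood at 764 ± 36.3 and 645 ± 28.8 CPM (SD, n = 3; edgeR adjusted p = 0.335). HSPA5, the BiP chaperone of the endoplasmic reticulum, stood at 753 ± 12.2 and 693 ± 18.6 CPM (edgeR adjusted p = 0.676). Neither gene's groups overlapped, where 8.86% of all tested genes were lower without overlap and 18.0% did not overlap in either direction. The median of this list was -0.01.

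The 10 nucleotide exchange factors had a median of -0.02, with SIL1, an exchange factor of the endoplasmic reticulum, at 0.20 ± 0.11 (edgeR adjusted p = 0.535) and BAG1 at -0.21 ± 0.12 (edgeR adjusted p = 0.572). The 8 genes of HSP90 and its adaptors had a median of 0.05, with CHORDC1 at -0.21 ± 0.11 (edgeR adjusted p = 0.513) and the HSP90 activator AHSA1 at 0.14 ± 0.14 (edgeR adjusted p = 0.788). HSF1, the factor that switches on heat shock genes, stood at 194 ± 2.24 CPM with PQ and 186 ± 19.4 CPM with PQ+SS-31 (SD, n = 3; edgeR adjusted p = 0.882), and the 3 HSF genes had a median of -0.01. These are transcript levels; the activity of HSF1 was not measured.

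The list of other heat-induced genes held 14 tested members with a median of 0.02, 6 of them negative. HSPB8, a small heat shock protein of chaperone-assisted autophagy, stood at 35.5 ± 2.07 and 27.7 ± 2.50 CPM (SD, n = 3; edgeR adjusted p = 0.208), and its groups did not overlap. In this list 4 members were lower and 1 higher without overlap, where 8.86% and 9.16% of all tested genes were. The higher one, CRYAB, a small heat shock protein named here after its values were seen, stood at 1.54, 1.01 and 1.57 CPM in PQ replicates 1 to 3 and at 2.49, 1.96 and 1.63 CPM with PQ+SS-31. Its log2 fold change of 0.55 ± 0.30 (SE; edgeR adjusted p = 0.55) was the largest in size of the 47 partner genes and rested on 16 to 43 counts per library.

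**Figure D5:**
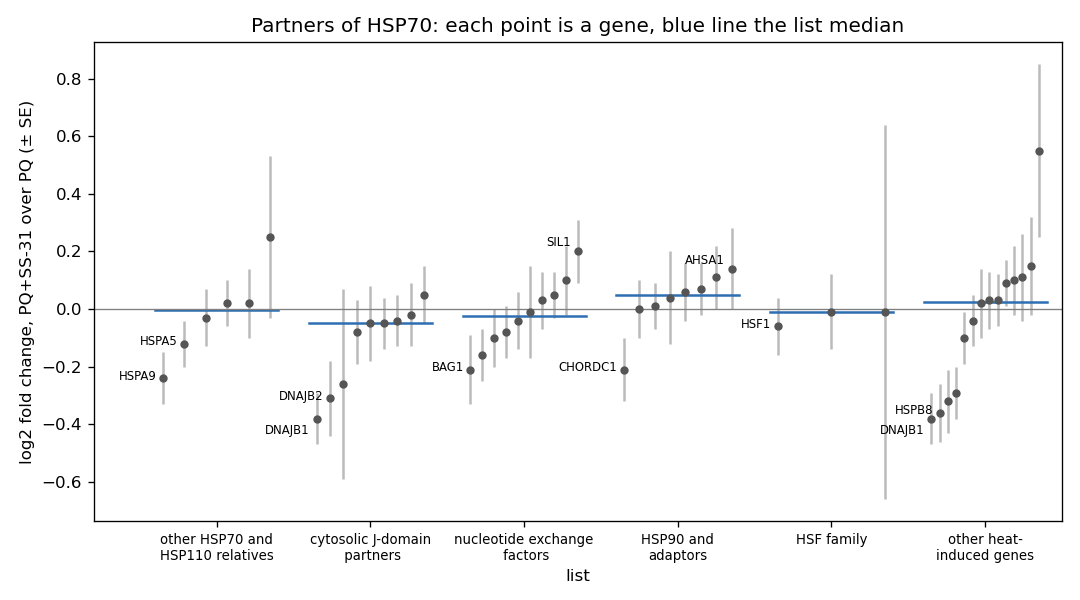
Fitted log2 fold change (PQ+SS-31 over PQ) ± SE of each tested partner gene by list, with list medians in blue and the named genes labelled. DNAJB1 at -0.38 is the lowest point and CRYAB, unlabelled, at 0.55 the highest, and the list medians lie between -0.05 and 0.05.

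The pattern of HSPA6 over the 6 libraries was set beside those of 12639 protein-coding genes of at least 1 CPM, by the root-mean-square difference of log2 CPM deviations from each gene's own mean. The nearest was ATP6V0D2, a subunit of the vacuolar proton pump, at a distance of 0.55, where HSPA6 itself lay 1.56 from its own mean. It stood at 3.32, 2.84 and 4.77 CPM in PQ replicates 1 to 3 and in PQ+SS-31 replicates 1 to 3 at 0.926, 0.831 and 0.640 CPM, with PQ replicate 3 the highest and PQ+SS-31 replicate 3 the lowest, as for HSPA6. Next came IFITM10 (0.87), the pro-apoptotic BMF (0.88), the hexokinase HK2 (0.93) and TMCC3 (0.94). The 5 genes were picked for this pattern, so their lower values follow from the choice and nothing is read from the number called. Over all tested genes 0.592% were called. Of these 5, edgeR called ATP6V0D2 (log2 fold change -2.18, adjusted p = 0.0276) and HK2 (-1.39, adjusted p = 0.0252). Both calls were lost in 5 of 6 edgeR refits without 1 library and held without PQ replicate 3, with adjusted p from 0.0131 to 0.187 for ATP6V0D2 and from 0.0026 to 0.217 for HK2.

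Of 56 tested genes whose promoter window holds the 3-unit element, edgeR called 0 higher and 1 lower, HSPA6, with a median log2 fold change of -0.03. Among the 10854 tested genes with a window it called 15 higher and 52 lower, with a median of 0.00. HSPA6 and HSPA1B are genes of 1 exon in every annotated transcript. Among 219 tested protein-coding genes of this kind, edgeR called 0 higher and 4 lower, JUN, SOWAHC, HSPA1B and HSPA6, with a median of -0.06. Among all 13206 tested protein-coding genes it called 20 higher and 71 lower, with a median of 0.00. Both groupings were chosen after the data were seen. Each counts HSPA6 itself, and the 1-exon group counts HSPA1B too, so nothing is read from these counts.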

How the data were processed

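Raw counts per gene for 6 libraries were deposited by the authors as 1 table of whole numbers. The submitters' processing notes name, without roles, featureCounts 1.5.0-p3, HISAT2 2.0.5, CASAVA and DESeq2 1.20.0. The notes name a mouse build, but all 58735 gene IDs are in the human GENCODE 29 (GRCh38). Strand, multi-mapping and read length are not given in the sources used here. Columns lettered P and S were matched to PQ and PQ+SS-31 by that letter and the replicate number in the titles. Genes were filtered with filterByExpr, scaled with TMM and tested with edgeR 4.0.16 (R 4.3.3; quasi-likelihood, Benjamini-Hochberg, threshold 0.05); DESeq2 1.42.0 was an alternative. CPM are TMM-scaled, SE come from the test statistic, and log2 CPM used a prior count of 2. Methods were tested on simulated data. Named genes are all members, every partner gene called, the 2 of smallest p per partner list (1 for HSF genes) and the 5 genes nearest HSPA6. Members and lists were chosen with earlier results of these data known. The motif, 1-exon and shared-window descriptions were chosen after seeing the data. Every replicate pair exceeded sampling noise (chi-square per degree of freedom 7.48 to 35.7), so each library was counted. Totals of 16332061 to 17576827 counts set the precision.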

Additional observations from a re-analysis of the deposited data

How the results depend on the processing

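Over all genes, edgeR called 20 higher and 72 lower. Scaling by library size alone gave 13 higher and 56 lower of 15550 tested genes. No filter gave 156 and 237 of 30286, and DESeq2 115 and 186 of 12084 with an adjusted p. Replicate numbers are shared between groups, but same-numbered libraries did not all deviate together (correlations across genes of -0.09, 0.39 and 0.19, and PQ+SS-31 replicate 1 ran closest to PQ replicate 3), so they were not taken as pairs; with the replicate number as a block 66 were higher and 134 lower. Leaving out 1 library gave 0 to 125 higher and 0 to 203 lower, with the highest counts without PQ replicate 3. Family rows called higher were 1, or 0 by library size alone and 0 to 1 without 1 library; rows called lower were 2, or 1 by library size alone and 0 to 2 without 1 library. HSPA1A was called by DESeq2 (2.49% of genes with an adjusted p called), with no filter (156 higher and 237 lower of 30286) and with the block (1.29% called). Partner genes called lower were 0, or 1 by DESeq2 and 0 to 1 without 1 library. The inducible difference of -0.24 became -0.18 with HSPA6 left out, -0.75 with HSPH1 counted as constitutive and -1.10 as a mean of log2 CPM. It ran from -0.33 to -0.13 without 1 library. The value of -0.75 follows from the choice of members, and in the mean of log2 CPM each member counts equally, HSPA6 included. The causes were not tested. All 135 recomputed log2 fold changes of members moved by less than 1 SD between replicates, but over 12 refits HSPA1B and HSPA2 each lost the call in 6 and HSPA6 in 1, HSPA1A gained it in 3, and HSPA4, not called, changed sign in 2 (-0.06 without PQ replicate 3, and -0.02 when PQ+SS-31 replicate 2 was dropped) and was at -0.00 when PQ+SS-31 replicate 3 was dropped. Of 177 values for other named genes, 10 lost and 10 gained a call and 1 reversed, HSF1, at 0.01 without PQ+SS-31 replicate 1 (range -0.14 to 0.01 without 1 library). Depth limits HSPA6 with SS-31, at 18 to 29 counts per library.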
